A study of Sus scrofa with 6 samples.

Results

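Cells make superoxide and hydrogen peroxide as by-products of respiration, of oxidative protein folding and, in the ovary, of steroid synthesis. Superoxide dismutases turn superoxide into hydrogen peroxide, and catalase, the peroxiredoxins and the glutathione peroxidases remove the peroxide. The peroxidases are kept reduced by the thioredoxin and glutathione systems, which draw on NADPH, and many of the genes are controlled by the transcription factor NRF2 (gene *NFE2L2*), which KEAP1 holds back. In granulosa cells (GCs), which surround and feed the oocyte, these enzymes accompany follicle growth and steroid production.

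The antioxidant and glutathione genes were chosen by a rule on names alone, set with earlier results of these data known. They are the genes whose Ensembl or published name begins with PRDX, GPX, SOD, TXN, GST, GCL, GLRX, MGST, SRXN or MSR, or equals *CAT*, *GSR*, *GSS*, *NQO1*, *NFE2L2* or *KEAP1*. The rule found 43 of the 17950 genes in the table, 41 by their Ensembl name and 2 (*TXNDC17* and *TXNDC2*) by their published name only. Of the genes written down for these roles, 14 were not found by symbol and were not analysed here, among them *TXN*, *SOD2*, *GPX1*, *GPX3*, *GCLM*, *TXNIP* and *KEAP1*. Of the 43 genes, 38 reached an FPKM of 1 on average over both groups (FPKM, fragments per kilobase of transcript, scaled to the mapped fragments of a library), and these are compared with the 12382 genes of the table that also did.

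Both groups were primary GCs from ovaries of Landrace pre-pubertal gilts, taken 72 h after the start of infection with a lentivirus. The pLVX-*RBP4* group received the vector pLVX-*RBP4*-IRES-ZsGreen with porcine *RBP4*, the plasma carrier of retinol, and the CTRL group the same vector without *RBP4*. Both groups therefore carried lentivirus and the ZsGreen marker, and no uninfected cells were compared. There were 3 libraries in each group, but the deposited table holds 1 value per gene and group. The table gives neither the spread between libraries nor the depth, so no test between the groups was computed and every difference is a description of these group values. Differences are those of log2(FPKM + 1), pLVX-*RBP4* minus CTRL, which shrinks changes of genes with low values. A difference of 0.25 on this scale, a ratio of about 1.19, was used to count genes.

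*RBP4* itself had 1.10 FPKM in CTRL GCs and 92.3 FPKM in pLVX-*RBP4* GCs, as the labels require. The granulosa markers *CYP11A1* (673 and 669 FPKM), *GATA4* (59.2 and 57.8 FPKM) and *FSHR* (9.99 and 8.47 FPKM) were present in both groups. *CYP19A1*, *FOXL2* and *AMH* were not found by symbol. All 7 granulosa markers found passed the filter, and none differed by 0.25 or more. Of these, 1 was higher and 6 lower (50.2% and 49.8% of all genes), with a median of -0.054 against 0.0014 for all genes. The theca markers *LHCGR* and *INSL3* lay below 0.3 FPKM in both groups. In the list of 7 macrophage and leukocyte markers 5 were found, with a summed level of 47.7 FPKM in CTRL GCs and 54.3 FPKM in pLVX-*RBP4* GCs. *CD14* (42.9 and 48.9 FPKM; 0.18) and *CD68* (4.02 and 4.59 FPKM; 0.15) were present, and *PTPRC*, *CSF1R* and *MRC1* lay below 0.43 FPKM in both groups. Fibroblast markers were also present. In this list of 5 genes, 4 were found, and their summed level was 249 FPKM in CTRL GCs and 301 FPKM in pLVX-*RBP4* GCs. *LUM* and *DCN* were higher by 0.37 and 0.32, *COL1A2* differed by 0.21 and *PDGFRA* by -0.16. In bulk RNA, fewer cells of a type and less RNA per cell cannot be told apart, and the part of these markers in the differences below was not tested.

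The antioxidant genes were among the more abundant transcripts of the GCs. The median of the 38 genes was 68.2 FPKM in CTRL GCs and 72.2 FPKM in pLVX-*RBP4* GCs, against 12.1 FPKM for all 12382 genes in each group. In the CTRL group 16 of the 38 genes (42.1%) reached 100 FPKM, a level reached by 8.62% of all genes. The highest levels belonged to *SOD3*, the secreted superoxide dismutase (677 FPKM), *PRDX1* (651 FPKM), *PRDX2* (543 FPKM) and *TXNRD1* (441 FPKM). Together with *GCLC* (350 FPKM), these genes held 49.8% of the summed FPKM of all 43 genes in the CTRL group.

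**Figure D1:**
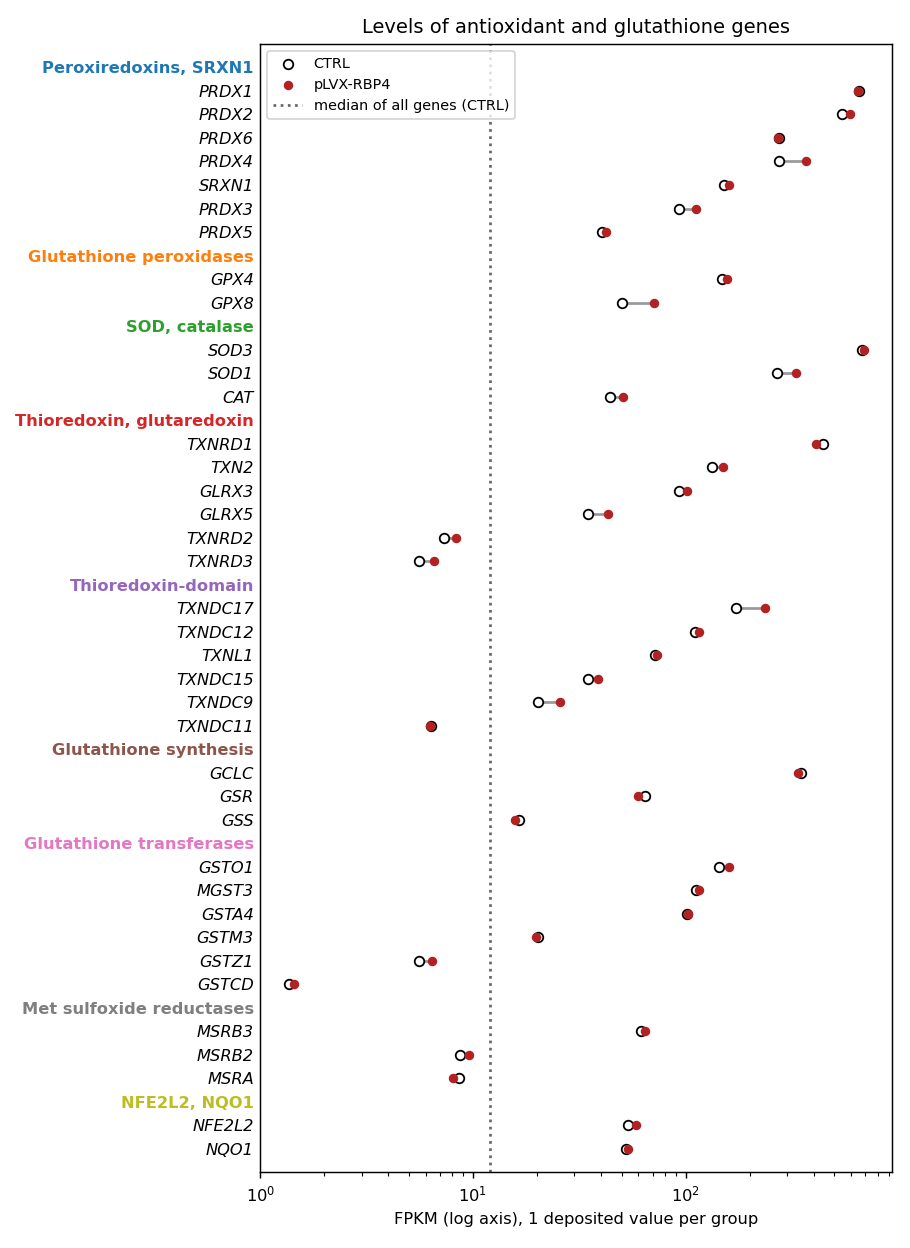
FPKM on a log axis for the 38 genes above the filter, grouped by role, with open circles for the CTRL group and filled circles for the pLVX-*RBP4* group. Each circle is the deposited value of a group, with no error; the dotted line is the median of all genes in the CTRL group (12.1 FPKM). Most pairs of circles nearly touch, and *PRDX4*, *GPX8* and *TXNDC17* show the widest gaps to the right.

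Of the 38 genes, 29 had the higher value with *RBP4* and 9 the lower value (50.2% of all 12382 genes were higher and 49.8% lower). By 0.25 or more, 7 genes were higher (18.4%, against 12.2% of all genes) and 0 lower (9.58% of all genes). By 0.4 or more, 3 were higher (7.89%, against 4.12%) and 0 lower (3.09% of all genes). No antioxidant gene differed by 2-fold or more (0.953% of all genes). The median difference of the 38 genes was 0.079, against 0.0014 for all genes. Within 0.1 of 0 lay 18 of the 38 (47.4%, against 39.4% of all genes). The difference over all genes varied with their level, so the antioxidant genes were also set beside genes of like level. Among the 2074 genes that averaged 50 FPKM or more, 63.6% were higher, 16.1% were higher by 0.25 or more and 3.33% lower by 0.25 or more, with a median of 0.064. Of the 24 antioxidant genes in that range, 19 were higher (79.2%), 5 were higher by 0.25 or more (20.8%) and 0 lower by as much, with a median of 0.073. Here the medians were close, while the share that was higher was larger among the antioxidant genes. Among the 1092 genes that averaged 100 FPKM or more, 67.1% were higher and 17.9% by 0.25 or more, with a median of 0.084. Of the 17 antioxidant genes in that range, 13 were higher (76.5%) and 4 by 0.25 or more (23.5%). Their median was 0.073, slightly below that of all genes at this level. Between 10 and 50 FPKM, 5 of 7 antioxidant genes were higher (49.2% of all genes) and 2 of 7 by 0.25 or more (10.6%), with medians of 0.16 and -0.0035. Between 1 and 10 FPKM, 5 of 7 were higher (46.1% of all genes) and 0 by 0.25 or more (12.1%), with medians of 0.12 and -0.020.

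**Figure D2:**
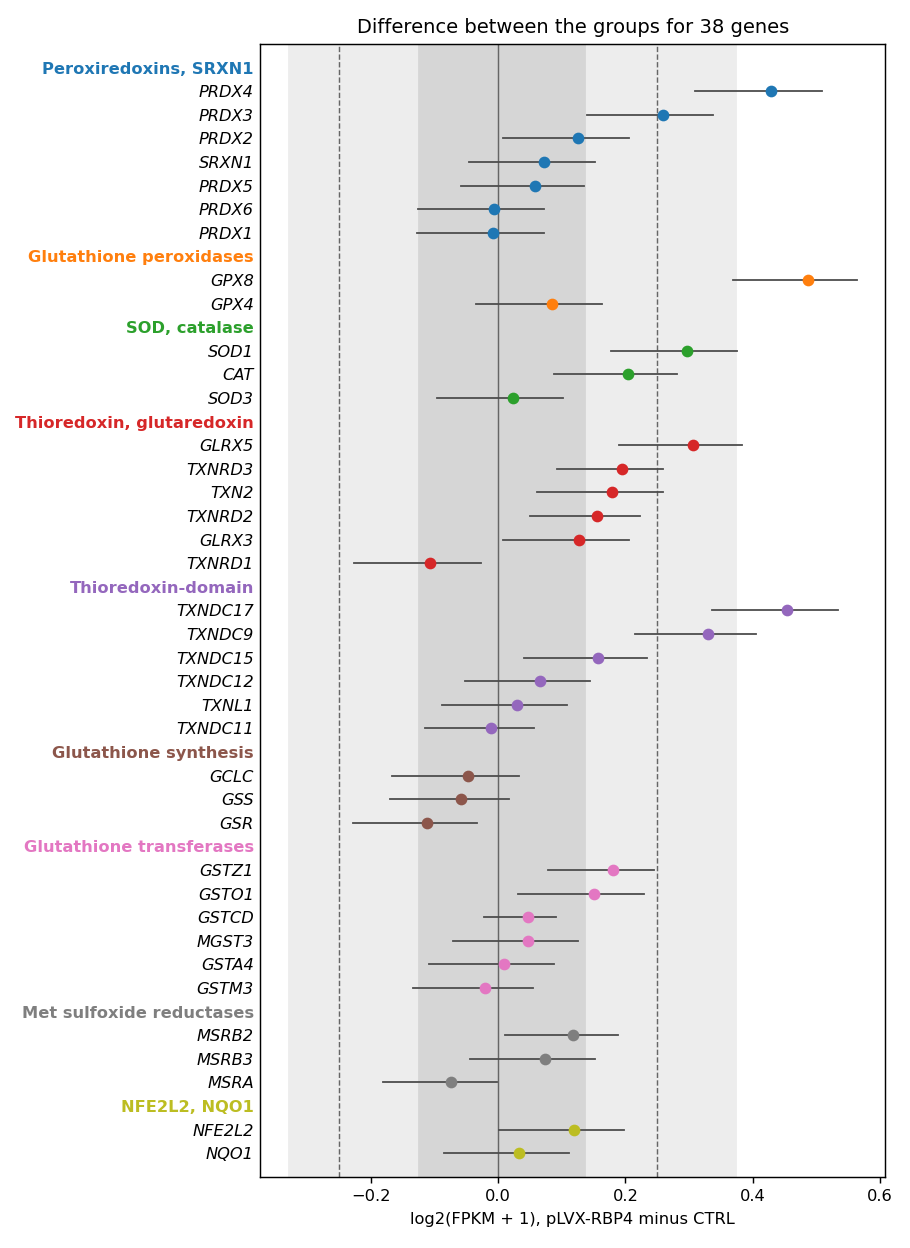
Difference of log2(FPKM + 1), pLVX-*RBP4* minus CTRL, for the 38 genes by role. Points are the differences as deposited, horizontal lines their range over the deposited values and 4 other scalings of the groups (not an error), dashed lines mark 0.25 either way, and the dark and light grey bands hold the middle 50% and 90% of all genes. *GPX8*, *TXNDC17* and *PRDX4* lie beyond the light band, and none of the 38 genes lies beyond the lower dashed line.

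Scaling shifts all genes by about the same amount, so it decides the direction of small differences, and a direction that is kept says only that the difference was larger than the shift. A single gene, the most abundant of the table, took 35.4% of the summed FPKM in CTRL GCs and 25.8% in pLVX-*RBP4* GCs. When the columns were scaled to a common sum without this gene, the median of all genes moved from 0.0014 to -0.11 and that of the antioxidant genes to -0.028, which left their distance to all genes at 0.077 (0.078 as deposited). In that scaling 18 of the 38 genes were higher (30.1% of all genes), and 3 were higher by 0.25 or more (5.58% of all genes). With a common upper quartile 25 were higher (43.4% of all genes), and with a common sum of all genes 35 (64.9%). Over the deposited values and 4 scalings, 18 of the 38 genes were higher in every case and 17 changed direction. Lower in every case were 3 (*GSR*, *TXNRD1* and *MSRA*). The shares of all genes that kept or changed direction were not computed, so these counts have no background to be read against.

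The peroxiredoxins are abundant thiol peroxidases. *PRDX4*, the member of the endoplasmic reticulum (ER) and secretory pathway, had 273 FPKM in CTRL GCs and 369 FPKM in pLVX-*RBP4* GCs, a difference of 0.43 and a ratio of 1.35. *PRDX3*, which acts in mitochondria, had 93.1 and 112 FPKM (0.26, ratio 1.20). The cytosolic members differed less. *PRDX1* had 651 and 647 FPKM, with a difference of -0.0079, and *PRDX6*, which is reduced by glutathione, had 274 and 272 FPKM (-0.0069). *PRDX2* had 543 and 593 FPKM (0.13). *PRDX5*, found in several organelles, had 40.6 and 42.3 FPKM (0.058), and *SRXN1*, the sulfiredoxin that repairs over-oxidised peroxiredoxins, 152 and 160 FPKM (0.073). The differences of *PRDX1*, *PRDX5*, *PRDX6* and *SRXN1* changed sign between scalings. *PRDX4* and *PRDX6* had near-equal levels in CTRL GCs, and the level of *PRDX4* relative to *PRDX1* was 0.420 in CTRL GCs and 0.569 in pLVX-*RBP4* GCs. How reads were divided between near-identical copies of these genes is not known from the deposited values.

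Among the glutathione peroxidases, *GPX8* showed the largest difference of all 38 genes. GPX8 is a membrane enzyme of the ER that carries cysteine where selenoenzymes such as GPX4 have selenocysteine. It had 50.2 FPKM in CTRL GCs and 70.7 FPKM in pLVX-*RBP4* GCs, a difference of 0.49 and a ratio of 1.41, which was rank 302 of the 12382 genes by increase. *GPX4*, the selenoenzyme that reduces lipid peroxides in membranes, was more abundant, with 148 and 157 FPKM (0.084), and changed sign between scalings. *GPX2*, an epithelial member, had 0.0411 FPKM in CTRL GCs and was listed at 0 in pLVX-*RBP4* GCs.

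*SOD1*, the copper and zinc enzyme of the cytosol, had 270 FPKM in CTRL GCs and 332 FPKM in pLVX-*RBP4* GCs, a difference of 0.30 and a ratio of 1.23. *SOD3* stood at 677 and 688 FPKM, with a difference of 0.023 whose sign depended on the scaling. *SOD3* thus exceeded *SOD1* 2.51-fold in CTRL GCs and 2.07-fold in pLVX-*RBP4* GCs. *CAT*, the peroxisomal catalase, had 43.9 and 50.8 FPKM, a difference of 0.20, just under the limit of 0.25, whereas *PRDX3* lay just above it. *SOD1* depends on a copper chaperone, *CCS*, which had 30.7 and 41.7 FPKM, a difference of 0.43. *ATOX1*, a second copper chaperone, had 193 and 229 FPKM (0.24).

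Of the 6 genes for thioredoxins, their reductases and glutaredoxins, 5 were higher in the pLVX-*RBP4* group (50.2% of all genes). *TXNRD1* was lower. *TXNRD1*, the cytosolic thioredoxin reductase, had 441 FPKM in CTRL GCs and 410 FPKM in pLVX-*RBP4* GCs, a difference of -0.11. The mitochondrial reductase *TXNRD2* had 7.35 and 8.30 FPKM (0.16), and its substrate, mitochondrial thioredoxin *TXN2*, had 133 and 150 FPKM (0.18). *TXNRD3*, a related reductase with a glutaredoxin domain, had 5.60 and 6.55 FPKM (0.19). *TXNRD1* was 60.0-fold more abundant than *TXNRD2* in CTRL GCs and 49.4-fold in pLVX-*RBP4* GCs. The glutaredoxins *GLRX5* and *GLRX3* handle iron-sulfur clusters and iron. *GLRX5*, in mitochondria, had 34.7 and 43.2 FPKM (0.31, ratio 1.24), and *GLRX3*, in the cytosol, 93.3 and 102 FPKM (0.13).

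The proteins named for a thioredoxin domain differ in function. *TXNDC17*, a cytosolic oxidoreductase that TXNRD1 reduces, had 173 FPKM in CTRL GCs and 237 FPKM in pLVX-*RBP4* GCs, a difference of 0.45 and a ratio of 1.37. *TXNDC9*, which binds the chaperonin of the cytosol, had 20.2 and 25.6 FPKM (0.33, ratio 1.27). *TXNDC15*, a membrane protein, had 34.6 and 38.7 FPKM (0.16), *TXNDC12*, an oxidoreductase of the ER, 111 and 116 FPKM (0.066), and *TXNL1*, which associates with the proteasome, 72.1 and 73.6 FPKM (0.031). *TXNDC11*, which binds the dual oxidases, was level at 6.37 and 6.31 FPKM. The last 3 changed sign between scalings. Below the filter, *TXNL4B*, a splicing factor, had 0.710 and 0.644 FPKM, and *TXNDC2*, known from sperm, had 0.123 FPKM in CTRL GCs and was listed at 0 in pLVX-*RBP4* GCs.

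All 3 genes of glutathione synthesis and recycling had slightly lower values in the pLVX-*RBP4* group (49.8% of all genes were lower). Their differences lay within the middle 50% of all genes, which began at -0.12. *GCLC*, the catalytic subunit of the rate-limiting ligase, had 350 FPKM in CTRL GCs and 339 FPKM in pLVX-*RBP4* GCs (-0.047). *GSS*, glutathione synthetase, had 16.5 and 15.8 FPKM (-0.058), and *GSR*, the reductase that returns oxidised glutathione, 64.3 and 59.5 FPKM (-0.11). None reached 0.25, and *GCLC* and *GSS* turned slightly positive (0.033 and 0.017) when the columns were rescaled to a common sum with the top gene included. *GCLC* was 21.2-fold more abundant than *GSS* in the CTRL group and 21.5-fold in the pLVX-*RBP4* group.

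The glutathione transferases, which couple glutathione to reactive compounds, stayed within 0.25. *GSTO1*, which also reduces dehydroascorbate, had 144 and 160 FPKM (0.15). *GSTZ1*, an enzyme of tyrosine breakdown, had 5.57 and 6.44 FPKM (0.18). *MGST3*, a membrane enzyme, had 112 and 115 FPKM (0.047), and *GSTA4*, which acts on products of lipid peroxidation, 101 and 102 FPKM (0.0093). *GSTM3* had 20.2 and 19.9 FPKM (-0.020), and *GSTCD*, which shares only a transferase-like domain and lay just above the filter, 1.36 and 1.44 FPKM (0.048). *GSTO2* lay just below it, with 0.767 and 0.621 FPKM. Only *GSTO1* and *GSTZ1* of the 6 genes above the filter kept their sign over the scalings.

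The methionine sulfoxide reductases repair oxidised methionine. *MSRB3* was the most abundant, with 61.5 and 64.7 FPKM (0.074), followed by *MSRB2* with 8.72 and 9.55 FPKM (0.12) and *MSRA* with 8.56 and 8.09 FPKM (-0.073). The sign of *MSRB3* depended on the scaling. The name rule also took in *MSR1*, which is not a reductase but a scavenger receptor of macrophages, with 0.160 FPKM in CTRL GCs and 0.279 FPKM in pLVX-*RBP4* GCs.

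*NFE2L2* had 53.4 FPKM in CTRL GCs and 58.1 FPKM in pLVX-*RBP4* GCs, a difference of 0.12. *NQO1*, a quinone reductase often read as an NRF2 target, had 52.3 and 53.5 FPKM (0.033), and its sign depended on the scaling.

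Summed over the 43 genes, the level was 5349 FPKM in CTRL GCs and 5725 FPKM in pLVX-*RBP4* GCs, a ratio of 1.07. *PRDX4*, *TXNDC17* and *SOD1* made up 58.7% of this difference. The 7 genes that were higher by 0.25 or more had 914 and 1188 FPKM in sum, and the other 31 had 4433 and 4535 FPKM, with differences from -0.11 to 0.20.

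**Figure D3:**
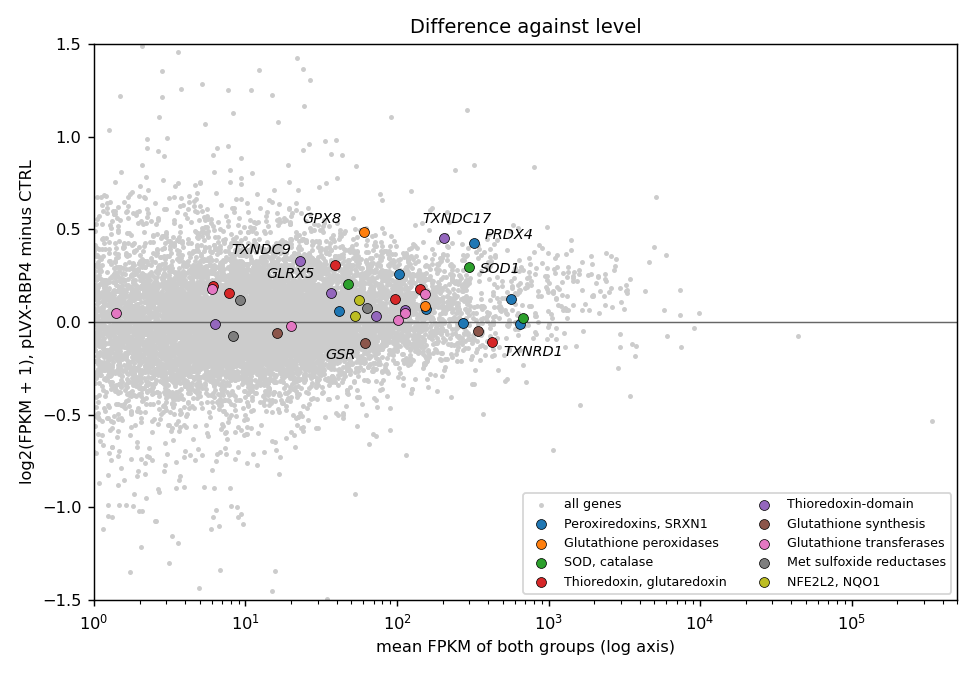
Difference of log2(FPKM + 1), pLVX-*RBP4* minus CTRL, against the mean FPKM of both groups on a log axis, with grey points for all genes and coloured points for the 38 antioxidant genes by role. The 71 genes beyond 1.5 either way are not drawn. The grey cloud narrows and drifts above 0 at high levels, and most antioxidant genes lie within it, with *GPX8*, *TXNDC17* and *PRDX4* near its upper edge.

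The genes were also grouped by where the proteins mainly act, from general knowledge. Of 8 names listed for mitochondria 5 were found (*PRDX3*, *TXN2*, *TXNRD2*, *GLRX5* and *MSRB2*), and these were higher, from 0.12 to 0.31 with a median of 0.18 (50.2% of all genes were higher, with a median of 0.0014). The list is not a full list of mitochondrial antioxidant genes. Genes whose proteins also occur in mitochondria were left out, among them *MSRA* (-0.073) and *PRDX5* (0.058). Of 8 names listed for the ER and secretory pathway 5 were found and 4 of them were higher, with a median of 0.16, from *GPX8* and *PRDX4* at the top to *TXNDC12* and *TXNDC11* near 0. The secreted *SOD3* (0.023) is not in that list. Genes of oxidative protein folding in the ER had no common direction. All 10 genes found of this list passed the filter, and 5 were higher and 5 lower (50.2% and 49.8% of all genes), with a median of -0.015. By 0.25 or more, 1 was higher and 1 lower (12.2% and 9.58% of all genes). The higher gene was *ERP29*, a chaperone of the ER (62.2 and 82.9 FPKM, 0.41). The lower was *ERO1B*, an oxidase that makes hydrogen peroxide while it forms disulfides (3.24 and 2.38 FPKM, -0.33). Its more abundant relative *ERO1A* had 94.3 and 84.7 FPKM (-0.15).

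Other genes of the NRF2 and glutathione pathways were examined from a list of 41 names, of which 29 were found and 27 passed the filter. Here 9 were higher and 18 lower (50.2% and 49.8% of all genes), with a median of -0.063 against 0.0014 for all genes. By 0.25 or more, 1 was higher and 1 lower (12.2% and 9.58% of all genes). *LAP3*, a peptidase that takes part in glutathione breakdown, had 59.5 and 71.5 FPKM (0.26). *BACH1*, a repressor that competes with NRF2 at its sites, had 11.9 and 9.24 FPKM (-0.33). Of the enzymes that supply NADPH or belong to the pentose phosphate pathway, 5 are given here, picked after their values were seen, and all lay within 0.25. *ME1* had 24.7 and 22.0 FPKM (-0.16), *TKT* 578 and 522 FPKM (-0.15), *PGD* 380 and 349 FPKM (-0.12) and *TALDO1* 695 and 685 FPKM (-0.019), while *IDH1* had 68.2 and 72.8 FPKM (0.093). The cystine transporter subunits *SLC7A11* (39.3 and 40.5 FPKM) and *SLC3A2* (215 and 226 FPKM) were close to level.

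**Figure D4:**
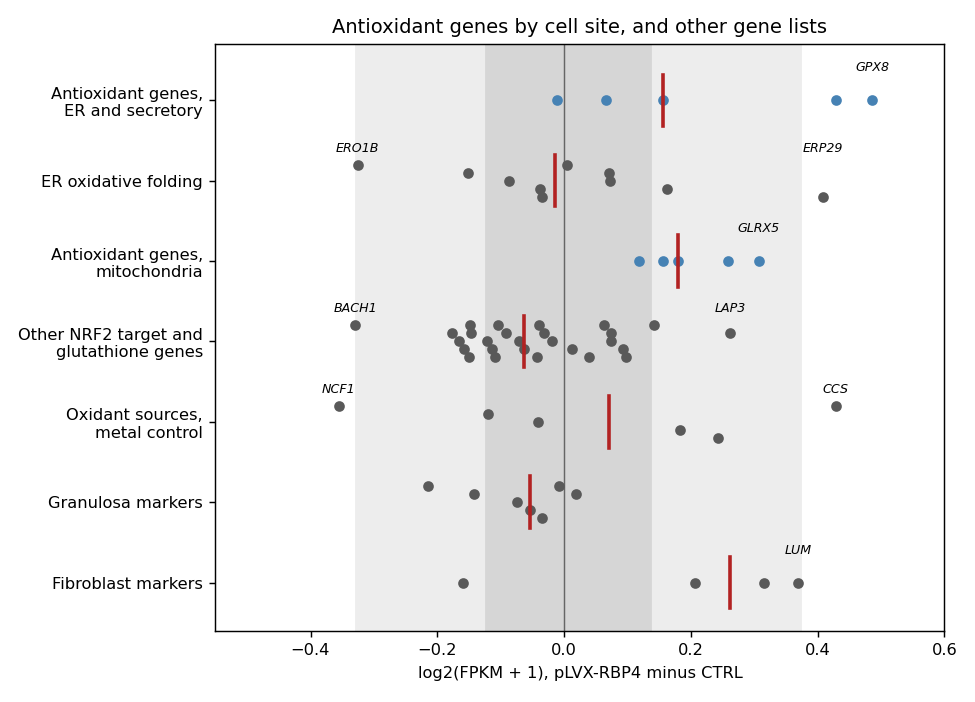
Difference of log2(FPKM + 1), pLVX-*RBP4* minus CTRL, for genes above the filter of 1 FPKM, with blue points for the antioxidant genes of 2 cell sites and grey points for other lists; the vertical offset of points has no meaning. Red bars are medians, and the dark and light grey bands hold the middle 50% and 90% of all genes. The 5 listed mitochondrial genes lie above 0, the other NRF2 target and glutathione genes centre at -0.063, and the fibroblast markers include 3 of 4 genes above 0.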

How the data were processed

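RNA of porcine GCs from 3 pLVX-*RBP4* and 3 CTRL libraries was sequenced as paired-end reads. According to the study's methods, the authors aligned the reads to Sscrofa10.2 with TopHat2, expressed levels as FPKM and compared the groups with Cuffdiff. The deposited values are FPKM, 1 per gene and group, and both columns were used. How the 3 libraries of a group were combined is not given in the sources used here. The annotation release and tool versions are not given in the sources used here.

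From these values the difference of log2(FPKM + 1) was computed for genes averaging at least 1 FPKM. With 1 value per group, no test, SD or interval can be given, and the depth per library was not used. Gene names came from a table of Ensembl names and, for names only, from the published tables, and 10757 of the 17950 genes had one. No genome, sequence or coordinates were used. The genes, roles, marker lists and other lists were chosen with earlier results of these data known. The study had already listed *GPX8* and *PRDX4* among its differentially expressed genes, under antioxidant activity. Its stated criteria named a fold change of 2 among other limits, while the deposited values gave ratios of 1.41 and 1.35. How these genes met the criteria is not known here. Every gene of the set above this filter could be named, and of the other lists those differing by 0.25 or more; other names from the lists were picked after their values were seen. Under an alternative, shifts of 0.1 or more in a difference and of over 1.5 times in a count were taken as moves. The script was tested on simulated data without noise, which checks only the arithmetic of the differences and counts. Python 3.11.15, numpy 2.4.6, pandas 2.3.3 and matplotlib 3.10.9 were used. A result on another gene of the lists is not reported here.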

Additional observations from a re-analysis of the deposited data

How the results depend on the processing

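No paired analysis was possible because the deposited table holds 1 value per gene and group, and for the same reason no library could be left out. The alternative with protein lengths was not run, since no protein sequences were used here. Pseudocounts of 0.1 and 0.01, a mean FPKM of at least 5, a common median, a common upper quartile and a common sum kept the counts within 1.5 times and the medians within 0.1. Scaling to a common sum without the most abundant gene moved the most. There, 18 genes were higher, 3 of them by 0.25 or more, and the median of the 38 genes was -0.028. The medians by role became -0.046 for the peroxiredoxins, 0.17 for the glutathione peroxidases, 0.087 for the superoxide dismutases and catalase, 0.056 for the thioredoxins and reductases, -0.0059 for the thioredoxin-domain proteins, -0.17 for glutathione synthesis and reduction, -0.043 for the methionine sulfoxide reductases and -0.041 for *NFE2L2* with *NQO1*. No filter on low values brought *GPX2* in and the median of the glutathione peroxidases to 0.084. With a limit of 0.4 in place of 0.25, 3 genes (*GPX8*, *TXNDC17* and *PRDX4*) were higher and 0 lower. A mean FPKM of at least 50, chosen after seeing the data, left 19 higher genes of 24. The study reports the depth of each library. Every pLVX-*RBP4* library had more mapped reads, and a larger mapped share, than any CTRL library. These depths were not used here, so the counting error of the values was not estimated, and the part of depth in the differences was not tested.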

Other observations

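Among genes that produce oxidants or bind metals, 12 of 18 listed genes were found and 6 passed the filter of 1 FPKM. Of these, 3 were higher and 3 lower (50.2% and 49.8% of all genes), with a median of 0.070 against 0.0014 for all genes. By 0.25 or more, 1 was higher and 1 lower (12.2% and 9.58% of all genes). Beside *CCS* (0.43), *NCF1*, a cytosolic subunit of the phagocyte oxidase, had 1.66 FPKM in CTRL GCs and 1.08 FPKM in pLVX-*RBP4* GCs (-0.36). *NOX4*, an oxidase that makes hydrogen peroxide, had 1.85 and 2.24 FPKM (0.18), and *MAOB*, a mitochondrial monoamine oxidase, 131 and 121 FPKM (-0.12). The dual oxidases *DUOX1* and *DUOX2* were below 1 FPKM in both groups.

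For selenium incorporation, 6 of 10 listed names were found and 5 genes passed the filter. Of these, 4 were higher (50.2% of all genes), with a median of 0.16 against 0.0014 for all genes. By 0.25 or more, 2 were higher (12.2% of all genes) and 0 lower (9.58%), and the 2 had levels near the filter. *PSTK*, a kinase in the making of selenocysteine tRNA, had 1.82 and 2.53 FPKM (0.33), and *SCLY*, which recycles selenium, 1.30 and 1.81 FPKM (0.29). Of the selenoenzymes *GPX4*, *TXNRD1*, *TXNRD2* and *TXNRD3*, 3 were higher (50.2% of all genes) and *TXNRD1* was lower. The sign of *GPX4* depended on the scaling. Of the remaining marker lists, endothelial *PECAM1* had 16.3 and 16.0 FPKM and *KDR* 3.55 and 3.03 FPKM, oocyte *GDF9* 3.36 and 3.51 FPKM, and red cell *ALAS2* was listed at 0 for CTRL and had 0.0716 FPKM with *RBP4*.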
